A study of Mus musculus with 18 samples.

Results

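The circadian clock genes are described here by the peaks of open chromatin at 10 of them in mouse retina: Clock, Arntl, Per1, Per2, Per3, Cry1, Cry2, Nr1d1, Nr1d2 and Dbp. They were chosen by name, and each was given a window from 10 kb upstream of its annotated start to its end. These are 10 of 21938 protein-coding genes of the annotation, and their windows held 62 of the 73567 consensus regions, a consensus region being a stretch where merged peaks of at least 2 libraries lie. The assay was ATAC-seq, in which a transposase cuts accessible DNA, and each of 18 libraries has 1 peak list. Retinas of WT mice aged 3 or 18 months (3mo, 18mo) fall into 6 groups of 3 libraries. IOP eyes had their intraocular pressure raised to 30 mmHg for 1 hour and were taken on day 2 by the labels, and contralateral eyes are the partner eyes of such mice. Untreated retinas are here those whose sample titles name no pressure, no contralateral eye and no day. The study's text gives another day for the retinas used in this assay, and the labels were followed. Mice with raised pressure were anesthetized by the study's methods, which contralateral and IOP eyes therefore share. The protocol text names dasatinib and a vehicle, but the labels put no library in either arm. The time of day and the lighting at collection, which set the phase of a clock, are not given in the sources used here.

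The molecular clock is a feedback loop. CLOCK and ARNTL (also called BMAL1) form a pair that binds E-boxes and switches on the Per and Cry genes, whose proteins return to the nucleus and block that pair. NR1D1 and NR1D2 (REV-ERB alpha and beta) repress Arntl through ROR response elements (ROREs), and DBP drives target genes through D-boxes. The retina has its own clock, which keeps time in culture and paces visual sensitivity, melatonin production and the shedding of photoreceptor outer segments.

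The sequences below show 20 of the 48 matches to clock elements inside the member regions, chosen after the matches were seen, and the 2 regions whose calls are described for age and for pressure. They were read from the mm10 genome on the strand of the gene, 5′ to 3′, with each match in capitals: the E-box CACGTG, the E'-box CACGTT, the D-box TTATGTAA or TTATGCAA (each on either strand, so that AACGTG and TTACATAA are matches too), or the RORE. No stretch overlaps an annotated exon, except that the Dbp intron lies in an exon of a retained-intron transcript. Positions are in bases from the annotated start of the gene, downstream positive.
Per1 promoter, -350 to -121, chr11:69094867-69095096, plus strand: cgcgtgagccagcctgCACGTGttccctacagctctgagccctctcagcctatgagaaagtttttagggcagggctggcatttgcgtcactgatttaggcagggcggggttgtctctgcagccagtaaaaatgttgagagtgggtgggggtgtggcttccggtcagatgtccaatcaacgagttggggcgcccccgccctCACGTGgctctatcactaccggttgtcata
Per2 promoter, -190 to -81, chr1:91459405-91459514, minus strand: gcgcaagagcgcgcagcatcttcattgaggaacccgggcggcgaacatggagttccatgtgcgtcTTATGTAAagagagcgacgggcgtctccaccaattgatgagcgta
Per3 promoter, -230 to -121, chr4:151044786-151044895, minus strand: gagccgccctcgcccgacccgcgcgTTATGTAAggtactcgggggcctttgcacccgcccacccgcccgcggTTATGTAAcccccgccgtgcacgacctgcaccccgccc
Cry1 promoter, -130 to -21, chr10:85185085-85185194, minus strand: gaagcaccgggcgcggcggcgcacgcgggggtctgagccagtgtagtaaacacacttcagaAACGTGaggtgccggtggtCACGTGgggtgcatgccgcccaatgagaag
Clock first intron, 740 to 859, chr5:76303933-76304052, minus strand: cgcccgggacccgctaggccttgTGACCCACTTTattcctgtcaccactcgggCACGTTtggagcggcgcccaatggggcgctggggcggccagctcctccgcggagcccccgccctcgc
Nr1d1 intron, 1225 to 1504, chr11:98773829-98774108, minus strand: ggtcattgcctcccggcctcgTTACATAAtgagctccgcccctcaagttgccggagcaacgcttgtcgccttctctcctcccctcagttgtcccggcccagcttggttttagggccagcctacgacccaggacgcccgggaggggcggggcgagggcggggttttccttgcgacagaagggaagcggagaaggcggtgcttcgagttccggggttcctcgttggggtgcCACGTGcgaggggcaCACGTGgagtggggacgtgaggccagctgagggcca
Dbp intron, 2606 to 2785, chr7:45707694-45707873, plus strand: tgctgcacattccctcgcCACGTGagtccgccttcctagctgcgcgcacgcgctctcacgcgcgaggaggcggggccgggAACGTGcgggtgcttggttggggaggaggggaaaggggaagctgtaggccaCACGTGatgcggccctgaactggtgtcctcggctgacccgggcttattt
Cry1 intron, 23053 to 23192, chr10:85161872-85162011, minus strand: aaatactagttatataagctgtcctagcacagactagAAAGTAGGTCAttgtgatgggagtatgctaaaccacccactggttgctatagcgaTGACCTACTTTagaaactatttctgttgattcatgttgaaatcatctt
Arntl intron, 43384 to 43523, chr7:113250849-113250988, plus strand: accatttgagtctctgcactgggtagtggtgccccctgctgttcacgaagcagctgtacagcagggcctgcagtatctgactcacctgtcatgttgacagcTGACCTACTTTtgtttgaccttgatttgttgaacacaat
Cry2 intron, 10085 to 10214, chr2:92423829-92423958, minus strand: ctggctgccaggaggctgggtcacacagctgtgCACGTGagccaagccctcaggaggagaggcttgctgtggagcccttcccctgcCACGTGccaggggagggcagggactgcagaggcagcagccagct
Cry2 upstream, -4158 to -4039, no match, chr2:92438082-92438201, minus strand: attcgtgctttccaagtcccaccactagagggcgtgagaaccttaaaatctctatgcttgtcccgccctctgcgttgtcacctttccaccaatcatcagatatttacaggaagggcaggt
Per3 intron, 37444 to 37563, no match, chr4:151007102-151007221, minus strand: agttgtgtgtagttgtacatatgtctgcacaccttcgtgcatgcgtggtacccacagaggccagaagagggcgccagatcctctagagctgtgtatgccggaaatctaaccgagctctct

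Per1 had E-boxes at -332 and -148, Cry1 an E-box at -47 beside an E'-box at -66, and Per3 D-boxes at -201 and -154. The Cry1 intron held a pair of ROREs at 23095 and 23150, the Dbp intron 2 E-boxes with an E'-box between them, and the Nr1d1 intron a D-box and 2 E-boxes that lie 15 bases apart. Matches not printed include a RORE at 77 in the start-site region of Arntl, an E'-box at 8 in that of Per2, and E-boxes at 452, 555 and 600 in that of Nr1d2. Within 200 bases around the summit, an E-box was found in 8 of the 62 member regions (12.9%) and in 5.00% of 73449 regions of the series. The E'-box was found in 4 member regions (6.45%, against 2.84%), the D-box in 5 (8.06%, against 1.75%), the RORE in 5 (8.06%, against 1.32%) and the CRE (TGACGTCA, the cyclic AMP response element) in 1 (1.61%, against 0.918%). Among 11495 start-site regions of coding genes the shares were 8.15% for the E-box, 3.38% for the E'-box, 0.548% for the D-box, 3.24% for the CRE and 0.122% for the RORE. Of the 10 member start-site regions, 2, 3, 2, 0 and 1 held these elements in the same order. These are matches of letters and show no binding.

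As a check of the tissue, start-site regions of Nrl, Pde6b and Gnat1 (rods), Arr3 (cones), Crx (photoreceptors), Pou4f1 and Isl1 (ganglion cells) and Glul (Müller glia) were called in 18 of 18 libraries. Start-site regions were called in fewer libraries for Opn1sw (4), Grm6 (9), Cabp5 (14), Tfap2b (4), Rbpms (15) and Rlbp1 (9), and in 0 for the cone gene Pde6h and the amacrine gene Tfap2a. Of genes of other cells and tissues, Rpe65, Tyr, Best1, Cldn5, Pecam1, Cx3cr1, Aif1, Tmem119, Mip, Lim2, Alb, Myh6 and Ins2 had a start-site region in 0 libraries, while Pmel had one in 18. The lists held 36011 to 66160 peaks per library. The shortest listed peak was 79 to 89 bp in the 6 untreated libraries, so these stand apart from the 12 others, and this difference and the kind of eye cannot be told apart. The 12 others fall into lists with a shortest peak of 114 to 122 bp and lists with one of 148 to 157 bp. The shorter kind makes up 1 of 3 libraries in the 3mo contralateral group and in each IOP group, and 2 of 3 in the 18mo contralateral group. Depth in reads is unknown, because peak lists hold no read counts.

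All 10 genes were open at their start in every library. Each annotated start had a region within 250 bp that was called in 18 of 18 libraries, against 49.3% of the 21938 coding genes. By the significance of the peak, given as its percentile rank among all peaks of the same library (100 is the most significant), Per2 stood highest at 98.3 ± 0.6 (SD, n = 18), followed by Cry2 at 95.8 ± 1.6 and Per3 at 95.2 ± 1.5. Arntl was at 92.8 ± 2.6, Cry1 at 90.7 ± 2.6, Nr1d2 at 90.3 ± 2.7, Per1 at 88.0 ± 2.4, Nr1d1 at 86.2 ± 3.8, Clock at 85.9 ± 2.9 and Dbp at 79.4 ± 2.9. Between neighbours in this order, Per2 and Cry2, and Clock and Dbp, differed by more than the SD of either, and the others by no more than the larger SD. Parts of the order changed with the group. Cry1 was above Nr1d2 in 3mo untreated libraries (means of 93.5 and 87.5) and below it in 3mo contralateral ones (89.6 and 91.9), and Nr1d1 was at 81.7 and 82.4 in the untreated groups and at 88.6 and 89.8 in the contralateral ones. The start-site region of Dbp, the PAR bZIP output factor of the loop, was listed as 2 peaks in 16 of 18 libraries.

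Of the 62 regions, 28 (45.2%) were called in all 18 libraries, against 33.6% of all consensus regions. Another 9 were called in 15 to 17 libraries, 15 in 4 to 14 and 10 in 2 or 3, and 22 further peaks were seen in 1 library only. All 13 promoter regions were called everywhere, and so were 12 of 41 intronic and 2 of 6 intergenic ones. The 33.6% pools all kinds of region, and shares by kind were not counted over the series. The median was 5.5 regions per member window and 1.11 per 10 kb, against 2 and 0.519 over coding genes. Arntl, whose product is the partner of CLOCK, had the most with 13 regions, 4 of them in all libraries, and single-library peaks numbered 9 in its window. Clock itself had 4 regions in a window of 105 kb (0.381 per 10 kb), the sparsest of the 10. Nr1d1 and Per1 were the densest, with 3.45 and 3.23 regions per 10 kb.

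**Figure D1:**
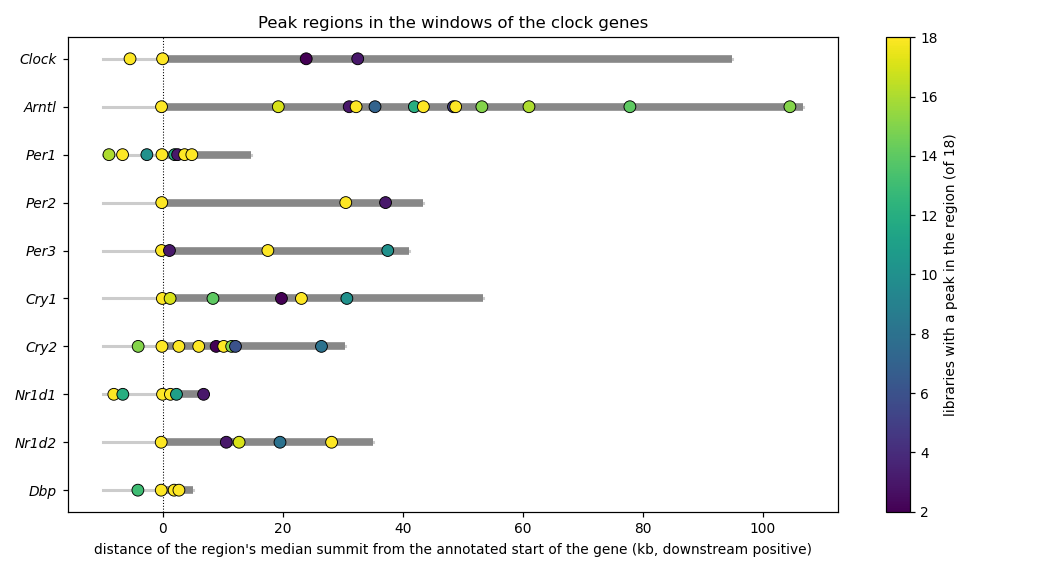
Position of the 62 consensus regions along the 10 clock genes. Each point is a region at the distance of its median summit from the annotated start (kb), the dark bar is the gene, the light bar its 10 kb upstream, and the color gives the number of libraries, of 18, with a peak there; the start of every gene carries a region called in all 18 libraries, and Arntl has the most regions, 13.

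Several windows also hold other genes, which limits what a region can be assigned to. The Per1 region 6698 bp upstream of its start is the promoter of Vamp2, and the regions at 3639 and 4847 lie at annotated alternative starts of Per1. The Per3 intron overlaps Camta1 in the annotation, the Nr1d1 window reaches into Thra, the Cry2 introns overlap the noncoding gene D930015M05Rik, and the Dbp window includes Car11 and Sphk2. The start-site region of Clock also covers the start of the antisense gene Gm7467.

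The position of the summit of the start-site peak differed between untreated libraries and all others at 3 genes. For Clock, the summits of the untreated libraries lay at 813, 813 and 818 (3mo) and 816, 829 and 811 (18mo). In the contralateral libraries they lay at -59, -24 and -54 (3mo) and -25, -48 and -32 (18mo), and in the IOP libraries at -29, -80 and -67 (3mo) and -1, -53 and -13 (18mo). All 6 untreated summits were thus inside the first intron, just downstream of the RORE at 768 and the E'-box at 796 printed above, and all 12 others at the annotated start, a median shift of 854.5 bp. The extent of the peak did not shift in this way. It was 1472 to 1568 bp wide in the 12 others and 1456 to 1543 bp in the untreated libraries, except 3mo replicate 4 (650 bp). The region spans 1588 bp, so the wide peaks of both kinds covered both sites.

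Per2, whose protein is a core repressor of the loop, showed the tightest positions. Its untreated summits lay between -97 and -92, and the 12 other summits between -173 and -165, on either side of the D-box at -121 in the printed promoter. Within each kind the spread was at most 8 bp, against a median shift of 74 bp. For Cry1, the untreated summits lay between -41 and -15 and the others between -358 and -45, with a median shift of 307 bp. The 12 others of Cry1 were themselves divided, 4 lying between -103 and -45 and 8 between -358 and -324.

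Groups that did not overlap with medians at least 50 bp apart were found for 3 of the 28 member regions called in all libraries, against 2.15% of 24751 such regions, and for 3 of 10 start-site regions, against 3.42% of 9598. This threshold was chosen after the positions were seen, and no test was made. Between the ages of control libraries 0 of 28 member regions met the same rule (0.0242% of all regions), and between IOP and contralateral libraries 0 of 28 at 3mo (2.45%) and 0 of 28 at 18mo (2.9%). The shift at Clock, Per2 and Cry1 moved with the shortest listed peak, which also separates the untreated libraries, and the part of that difference in the shift was not tested.

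**Figure D2:**
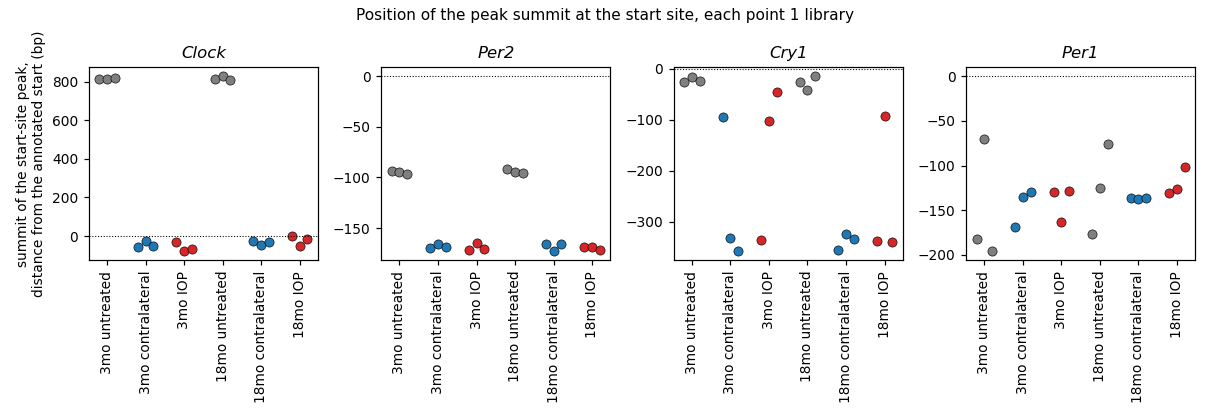
Summit of the strongest start-site peak in each library, in bp from the annotated start, for Clock, Per2, Cry1 and, for comparison, Per1. Each point is a library, colored gray for untreated, blue for contralateral and red for IOP; in Clock the 6 untreated points lie at 811 to 829 and the 12 others at -80 to -1, while in Per1 the groups overlap.

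Aging, compared as 6 control libraries of 18mo against 6 of 3mo, was not accompanied by a change in the number of peaks at any of the 10 genes that passed the test. Arntl had 12, 9 and 13 peaks in the 3mo untreated libraries and 7, 10 and 9 in the 3mo contralateral ones, and at 18mo 11, 11 and 13 in untreated and 12, 12 and 11 in contralateral libraries. The 18mo values lay in the upper part of the 3mo range and overlapped it. Within contralateral libraries alone the ages did not overlap, and the share of all genes with such a gap was not counted. There the lists of 3mo replicates 1 and 3 hold 39202 and 41499 peaks, against 51166 to 60755 at 18mo. The difference of 1.67 peaks was the one with the smallest p among the members (exact permutation test, two-sided, p = 0.156, adjusted p = 1). By the mean, 8 members had more peaks at 18mo and 2, Clock and Dbp, had fewer. Over 15325 coding genes with a varying number, 1.72% had an unadjusted p under 0.05 and more peaks at 18mo, and 0.209% had fewer. After adjustment the share was 0%, and among the members it was 0 of 10 in each case. An exact test of 6 against 6 libraries has few arrangements, so a 0 after adjustment over all genes was nearly fixed in advance.

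Per1 had 7, 7 and 9 peaks in 3mo untreated, 5, 7 and 5 in 3mo contralateral, 8, 9 and 8 in 18mo untreated and 7, 6 and 7 in 18mo contralateral libraries. The untreated libraries were at or above the contralateral ones at both ages, by 1.83 peaks on average (exact permutation test within age, p = 0.015, adjusted p = 0.289 over all genes). This direction was not particular to Per1: by the mean, Per2 alone of the 10 members had fewer peaks in untreated libraries (-0.33). The share of all genes with an unadjusted p under 0.05 in this comparison was not counted. Summed over the 10 windows, the controls had 48.7 ± 10.1 peaks at 3mo and 53.2 ± 3.6 at 18mo (SD, n = 6 each), a difference of 4.5 that is smaller than the spread at 3mo. It was 6.33 within contralateral and 2.67 within untreated libraries. Per 10000 peaks of the library, the members had 9.46 ± 0.565 at 3mo and 9.79 ± 0.988 at 18mo, and the difference was -0.12 within contralateral and 0.78 within untreated libraries. Among contralateral lists with a shortest peak of 114 to 122 bp the summed number was 57 at 3mo and 51 and 52 at 18mo, and among those of 148 bp or more it was 37 and 38 at 3mo and 48 at 18mo, so the direction differed between the kinds of list.

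**Figure D3:**
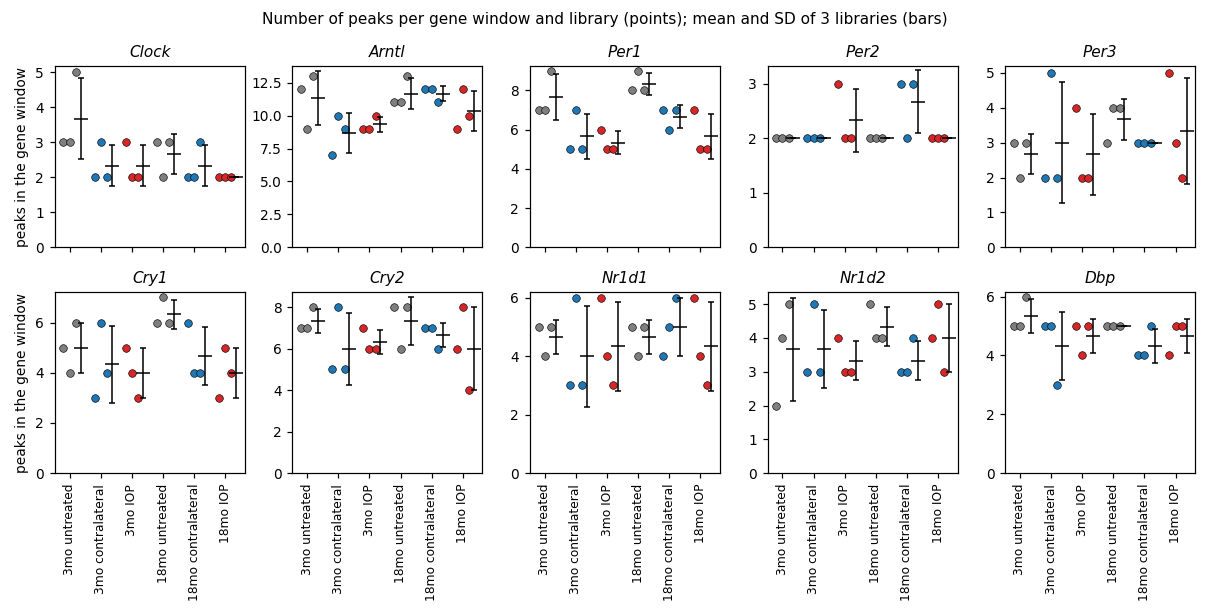
Number of peaks in the window of each gene, 1 panel per gene, with each point a library and the bar the mean and SD of the 3 libraries of a group (gray untreated, blue contralateral, red IOP). With both kinds of control pooled the ages overlap at all 10 genes, and so do IOP and contralateral libraries of each age. Within contralateral libraries Arntl has 7 to 10 peaks at 3mo and 11 or 12 at 18mo, where the lists of 3mo replicates 1 and 3 are smaller than any 18mo list.

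A region in Per3, which encodes the third of the period repressors, was called more often at 18mo. It lies at 37504 in an intron (chr4:151007073-151007302) and is printed above. At 3mo it was called in 0 of 3 untreated and 1 of 3 contralateral libraries, and at 18mo in 3 of 3 of each. In IOP libraries it was called in 1 of 3 at 3mo and 2 of 3 at 18mo. Fisher's exact test of 6 against 6 controls gave p = 0.0152, which did not pass adjustment over all regions, where the smallest adjusted p was 0.345. With the same number of peaks taken from every library the p was 1, and with the peak required to cover 50% of the region it was 0.242. It was the only one of 3 member regions with enough varying calls to reach an unadjusted p under 0.05. Over 9868 such regions 3.19% were called more often and 0.385% less often at 18mo at this level, and 0% after adjustment. Regions of Nr1d2 at 19543 and Cry1 at 8366 were called in 1 and 3 of 6 controls at 3mo and in 4 and 6 of 6 at 18mo (Fisher's exact p = 0.242 and 0.182).

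Raised pressure, tested over both ages with labels exchanged within each age, did not change the number of peaks of any member by the test. Per1 came first, with 6, 5 and 5 peaks in 3mo IOP and 7, 5 and 5 in 18mo IOP libraries beside the contralateral values above, a mean difference of -0.67 (exact permutation test, p = 0.35, adjusted p = 1). By the mean, 2 members had more and 7 fewer peaks in IOP eyes, and Per3 had the same. Over 13532 genes 0.155% had more and 1.32% fewer peaks at an unadjusted p under 0.05, and 0% after adjustment. The summed number was 44.7 ± 6.35 in IOP and 44 ± 11.3 in contralateral libraries at 3mo, and 46.3 ± 5.69 and 50.3 ± 2.08 at 18mo (SD, n = 3 each), with overlapping ranges at both ages. Among the lists of 148 bp or more, contralateral libraries had 37 and 38 and IOP libraries 41 and 41 at 3mo, and 48 against 51 and 40 at 18mo. Among the lists of 114 to 122 bp they had 57 against 52 at 3mo and 51 and 52 against 48 at 18mo. With labels exchanged only within these kinds of list, 0 of 10 members had an unadjusted p under 0.05 for age or for pressure. The 18mo IOP group contains the smallest list, and per 10000 peaks its members had 10.5 ± 0.625, above the 8.95 ± 0.505 of its contralateral group. This rate depends on the length of the list, and it was highest, at 11.1, in that smallest list (18mo IOP replicate 3, 36011 peaks). The rate of other genes was not counted, so the difference is no result about these genes.

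One region of Cry2, which encodes a cryptochrome repressor, was absent from 18mo IOP libraries. It lies at -4098, upstream of the gene and in no annotated gene (chr2:92437997-92438273), and its center is printed above. A peak was called there in 15 of 15 libraries of the other 5 groups and in 0 of 3 of 18mo IOP. Over both ages the exact test stratified by age gave p = 0.1, which is also the smallest p that 3 against 3 libraries allow. Such a loss at 18mo was seen for 1 of 62 member regions and for 2.23% of all regions. With 36011 peaks taken from every library it was called in 2 of 3 contralateral and 0 of 3 IOP libraries at 18mo, and no longer counted. The reverse, a region in 3 of 3 IOP and 0 of 3 contralateral libraries at 18mo, was seen for 0 member regions (0.239% of all). At 3mo 0 member regions were gained (0.217%) and 0 lost (0.241%).

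At 3mo, 10 member regions were missing from all IOP libraries but did not meet that rule, since they were called in at most 2 of 3 contralateral libraries of that age. Of these, 6 were called in 3 or fewer libraries of the series. The share of all consensus regions missing in this way was not counted, so the number is no result about these genes. Arntl at 77863 was called in 3 of 3 untreated, 2 of 3 contralateral and 0 of 3 IOP libraries at 3mo, and in 3 of 3 of each group at 18mo. Cry1 at 30688 had 3, 2 and 0 of 3 at 3mo and 3, 1 and 1 of 3 at 18mo in the same order, Per1 at -2649 had 2, 1 and 0, then 3, 3 and 1, and Cry2 at 26455 had 2, 1 and 0, then 2, 1 and 2. Arntl at 41938 was called in 0 of 3 contralateral libraries at 3mo, and in 3 of 3 untreated and 2 of 3 IOP libraries of that age. Of 5 member regions with enough varying calls for the pressure test, 0 had an unadjusted p under 0.05. Over 5572 such regions 1.62% were called more often and 3.43% less often in IOP libraries at this level, and 0% after adjustment, the smallest adjusted p being 0.397.

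**Figure D4:**
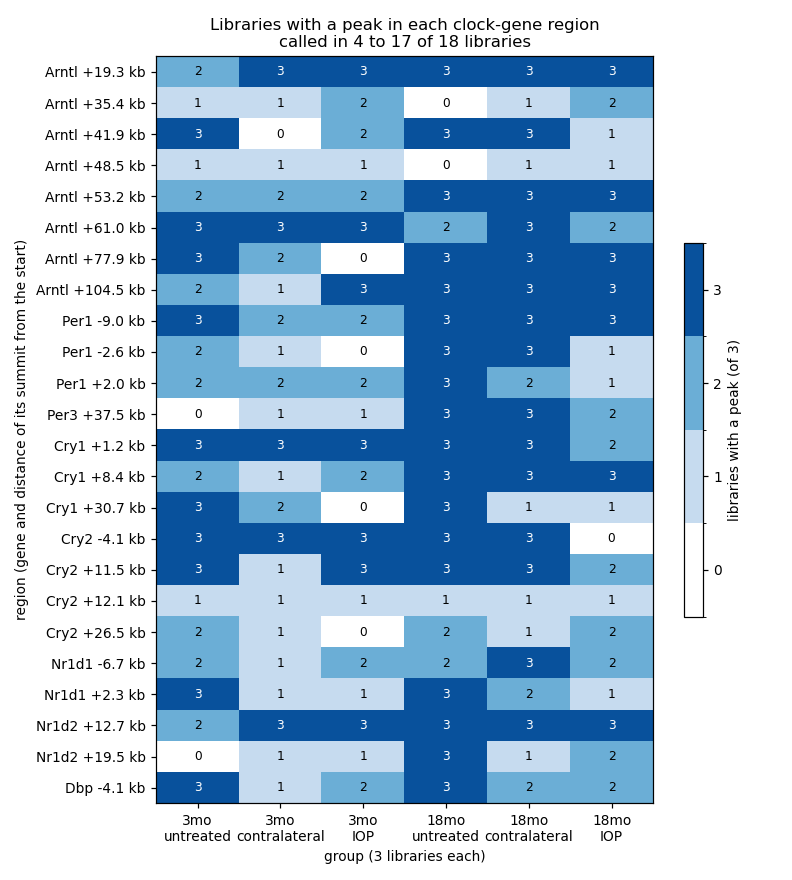
Number of libraries, of 3 in each group, with a peak in each of the 24 member regions called in 4 to 17 of 18 libraries. Rows are regions named by gene and distance of the summit from the start; the Per3 region at 37504 bp fills from 0 or 1 library at 3mo to 3 in both 18mo control groups, and the Cry2 region at -4098 bp is empty in 18mo IOP libraries only.

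For the 28 member regions called in all libraries, the call itself cannot vary, so their relative height was compared: the normal score of a region's rank by fold enrichment among the 24751 regions shared by all libraries. It is relative within a library and is no absolute accessibility, and in whole retina fewer cells of a type and less open chromatin per cell cannot be told apart. With age 0 of 28 passed adjustment in limma, against 0.327% of all shared regions. At an unadjusted p under 0.05, 1 was higher (6.86% of all) and 1 lower (5.64%). These 2 became 0 without 3mo untreated replicate 5, 3mo contralateral replicate 1 or 3 or 18mo untreated replicate 6, became 1 without 3mo untreated replicate 4 or 18mo contralateral replicate 1 or 3, and became 7 without 3mo contralateral replicate 2. The higher one was the Per3 intron at 17521 (0.38 ± 0.17 SE, limma adjusted p = 0.349). The lower one was the start of Arntl, whose rank percentile by fold was 43.7, 47.4 and 31.5 in 3mo untreated, 57.5, 27.0 and 64.0 in 3mo contralateral, 33.2, 29.8 and 26.9 in 18mo untreated and 35.3, 38.2 and 30.0 in 18mo contralateral libraries. The 3mo values spread from 27.0 to 64.0, and the 18mo values lay within that range but for the 26.9 (difference in normal score -0.34 ± 0.14 SE, limma adjusted p = 0.336). Without the second 3mo contralateral replicate, which holds the value of 27.0, the difference was -0.48 and passed (limma adjusted p = 0.0419). That replicate is the only 3mo contralateral list of the kind with the shorter shortest peak (116 bp, against 152 bp in both others), while 2 of 3 at 18mo are of that kind, and the part of this in the change was not tested. Without it the starts of Per1, Per2, Cry1, Cry2 and Nr1d2 also had an unadjusted p under 0.05 and were lower at 18mo (-0.39 to -0.25, limma adjusted p of 0.129 to 0.201). The share of all shared regions under 0.05 was not counted with a library left out, so the 7 are no result about these genes. No member was called with age when any other library was left out.

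In eyes with raised pressure at 18mo, the start of Arntl ranked at 58.7, 53.2 and 62.2, above its 3 contralateral values of 35.3, 38.2 and 30.0. The difference was 0.60 ± 0.20 SE (limma, unadjusted p = 0.00779, adjusted p = 0.293). At 3mo the IOP values were 46.6, 52.5 and 49.2, within the range of the contralateral ones. Unadjusted p under 0.05 at 18mo was also reached by the Cry2 region at 2685 (0.46 ± 0.18), the Nr1d1 intron at 1275 (0.53 ± 0.21), the Per1 alternative start at 4847 (0.42 ± 0.18) and the start of Nr1d2 (0.46 ± 0.22). All 5 of 28 were higher in IOP eyes, against 5.99% of all regions higher and 6.17% lower, and 0 of 28 passed adjustment (0.117% of all). The 5 became 1 without 18mo contralateral replicate 3 or 18mo IOP replicate 3, 3 without 18mo contralateral replicate 1, 8 without 18mo IOP replicate 2, and 2 with heights ranked by −log10 q. The shares of all shared regions in these settings were not counted. Over the 28 regions the median difference was 0.22, against 0.04 over all shared regions. The kinds of list are uneven in this comparison. The shortest peak was 114 bp in 18mo contralateral replicates 1 and 3 and 122 bp in 18mo IOP replicate 1, and 148 or 149 bp in the others. The part of this in the differences was not tested. At 3mo 0 of 28 passed adjustment (0.00404% of all), 1 was higher at an unadjusted p under 0.05 (1.55% of all) and 0 lower (1.79%). The difference between the ages in the effect of pressure passed for 0 of 28 (0% of all).

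Between untreated and contralateral controls, 7 of 28 member regions (25%) were higher (17.8% of all) and 2 (7.14%) lower (16% of all) after adjustment in limma. The Cry1 intron with the pair of ROREs ranked at 47.4, 52.3 and 69.5 in 3mo untreated and 59.1, 57.5 and 65.5 in 18mo untreated libraries. It ranked at 24.3, 31.6 and 42.3 in 3mo contralateral and 22.1, 15.2 and 16.3 in 18mo contralateral ones, with no overlap between the kinds (0.91 ± 0.14 SE, limma adjusted p = 0.000182). The IOP libraries, at 17.1, 17.4 and 36.8 (3mo) and 16.3, 23.8 and 23.6 (18mo), lay below the untreated ones too. The intron regions of Arntl at 32229 (0.96 ± 0.19), 43444 (0.61 ± 0.17) and 48825 (0.48 ± 0.17) were higher in untreated libraries. The Clock region at -5452 (0.47 ± 0.14) and the Cry2 regions at 2685 (0.40 ± 0.13) and 5996 (0.28 ± 0.10) were higher as well. The Cry2 intron region at 10155 (-0.43 ± 0.13) and the start of Nr1d1 (-0.39 ± 0.13) were lower. These differences move with the shortest listed peak, and its part in them was not tested apart from a fit with it as a covariate, in which 4 of 28 passed. The share of all shared regions that passed in that fit is not given here, so the 4 cannot be set against the series.

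**Figure D5:**
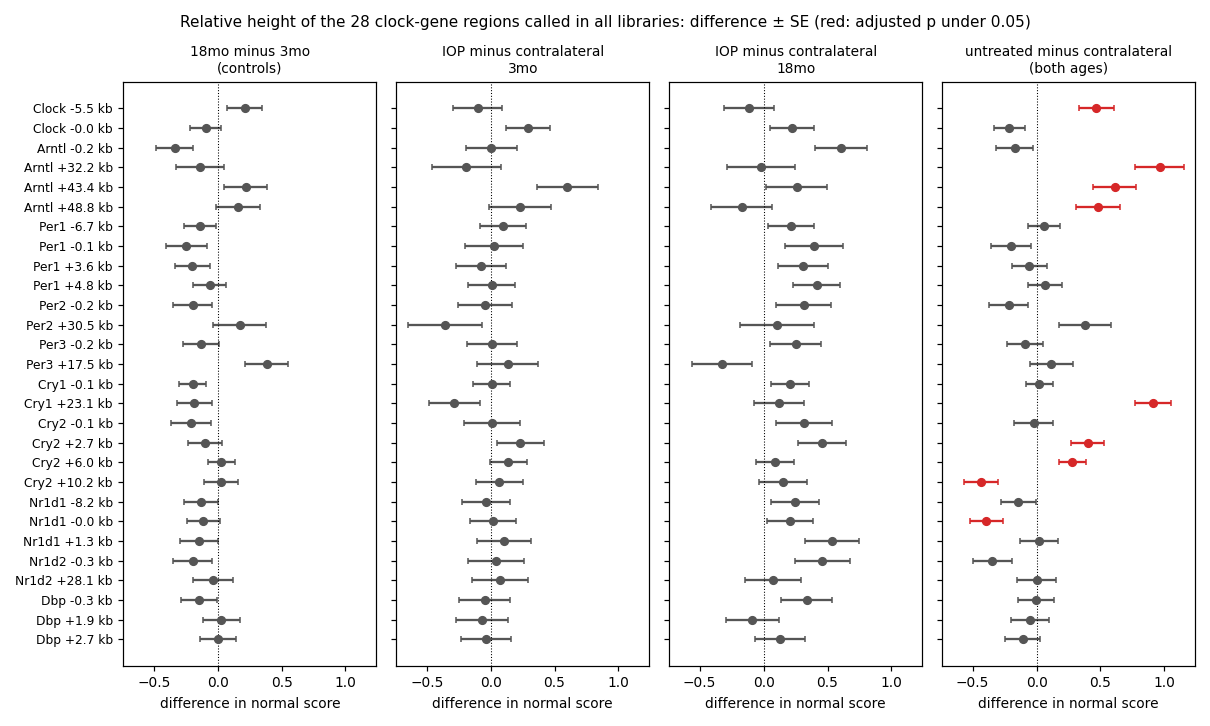
Difference in relative height, in units of the normal score with its SE, for the 28 member regions called in all libraries, named by gene and distance from the start. Panels give age, pressure at 3mo, pressure at 18mo and kind of control; red marks an adjusted p under 0.05, seen for 0, 0, 0 and 9 regions.

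Of the 22 other clock genes in a list of regulators and outputs (among them the Ror genes, Npas2, Nfil3, Bhlhe40, casein kinases and the opsin Opn4), 20 had a start-site region and 17 had it in all libraries. Their windows held 155 regions, 52 (33.5%) of them called in every library. The number of peaks had an unadjusted p under 0.05 for 0 of the 20 with a varying number among controls and for 0 of 19 in the pressure comparison. Of their regions with enough varying calls, 0 of 25 with age and 0 of 17 with pressure were under 0.05, and 4 of 155 (2.58%, against 2.23% of all regions) were lost in 18mo IOP libraries.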

How the data were processed

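The data are MACS2 narrowPeak lists of 18 ATAC-seq libraries of whole mouse retina on mm10, 1 list per library and none pooled. The authors deposited, for each peak, a score, a fold enrichment over background (a ratio), the −log10 of its p and q values and the offset of its summit; by the study's methods, peaks were kept at q of at most 0.05. The submitters' processing notes name STAR 2.7.8a, MACS2, HOMER, edgeR and bedtools 2.29.2. The protocol text also describes crosslinking, whereas fresh nuclei were transposed by the methods section.

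The members and gene lists were chosen with earlier results of these data known. Peaks overlapping by at least 1 bp were merged, and a region was kept if 2 or more libraries had a peak there. Genes were taken from GENCODE M21, and the start-site region is the one nearest to the start within 250 bp. A promoter reaches from 1000 bp upstream to 100 bp downstream of an annotated transcript start. Numbers of peaks were compared by two-sided exact permutation tests (400 arrangements for pressure), calls by Fisher's exact test or its version stratified by age, and relative heights by limma 3.58.1 in R 4.3.3 over all 18 libraries, with Benjamini-Hochberg adjustment over all genes or regions tested. The tests were tested on simulated data. The labels do not say that replicates come from separate animals, so p-values measure the spread between these samples, which may be technical. The text names all 10 members, their start-site regions, each region with an unadjusted p under 0.05 for its calls, exclusive to a group, or with an adjusted p under 0.05 for its height, and for members with none the distal region of highest mean rank; other regions named were chosen after their values were seen. For Per2 and Nr1d2 that distal region lies at 30507 and 12728, and for Dbp at 2696. Alternatives were a 2 kb upstream window, −log10 q of at least 2 (which removes only 0.2% to 0.992% of the peaks of a library), equal numbers of peaks, a stricter overlap, regions in at least 3 libraries, other strata and height measures, and leaving out each library. The lists carry no read counts, so depth per site is unknown and no interval was computed. Some retinal marker genes are not reported here.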

Additional observations from a re-analysis of the deposited data

Results flagged for a closer look

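Among 77 sets of 6 control libraries of 1 age, 6 had a library far from the other 5 by Dixon's criterion, which chance meets in about 1 set in 20. Clock had 5 peaks in 3mo untreated replicate 6, against 2 to 3 in the others, and Per3 had 5 in 3mo contralateral replicate 2, against 2 to 3. Dbp had 3 peaks in 3mo contralateral replicate 3, against 5 to 6. The rank percentile by fold of the Cry1 start was 43.7 in 3mo contralateral replicate 2, against 55.5 to 58.4. That of the Per2 start was 79.9 in 18mo contralateral replicate 2, against 62.5 to 68.4, and that of the Dbp intron at 2696 was 5.68 in 18mo contralateral replicate 1, against 1.56 to 2.74. The 3mo untreated replicate 6 and 3mo contralateral replicate 2 lists are the longest of the series, with 66114 and 66160 peaks.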

How the results depend on the processing

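Counts of members called after adjustment were 0 for age and pressure in the number of peaks, the calls and the relative heights under every alternative tried except one: 1 region passed with age in relative height when 3mo contralateral replicate 2 was left out (range 0 to 1). For the number of peaks and the calls, the exact p cannot be very small with so few libraries, so these counts of 0 say little. Whether the replicate numbers that groups share pair the samples cannot be decided from the lists. Between IOP and contralateral libraries of the same age, correlations of same-numbered deviations from the group mean ran from -0.33 to 0.36. Libraries of unlike number reached 0.46, between 3mo IOP replicate 1 and 3mo contralateral replicate 2, whose shortest peaks are 119 and 116 bp. With the replicate block the adjusted count was 0 members for the relative heights. It was also 0 for the number of peaks and the calls, but there each block set a single library against a single other. The few arrangements left keep the exact p high, so a 0 after adjustment over all genes or regions was nearly fixed in advance. The Per3 region at 37504 had p = 0.0625 in the same exact test, the smallest that 6 pairs with 5 that differ allow. The total of member peaks, IOP minus contralateral at 18mo, went from -4 to -1.67 with 2 kb upstream and to 3 with equal numbers of peaks, and ran from -6.33 to -0.833 when a library was left out, the last without 18mo IOP replicate 3. At 3mo it ran from -3 to 7.17, the last without 3mo contralateral replicate 2, and the age difference from 2.17 to 7.17. The regions exclusive at 18mo numbered 0 with 2 kb upstream, with equal numbers and with 50% coverage of the region, and 1 to 2 when a library was left out. At 3mo they numbered 1 with 50% coverage and 0 to 2 when a library was left out. The 9 regions that differed with kind of control became 4 with the shortest peak as covariate and 4 to 11 when a library was left out (4 without 18mo untreated replicate 5), and the 3 shifted summits 3 to 4; with a smallest shift of 100 bp they were 2. The alternatives for summits and kind of control were chosen after seeing the data, and the shares of all regions under them are not given here. At an unadjusted p under 0.05, relative heights at 18mo pressure counted 1 to 8 regions when a library was left out, against 5, and those for age 0 to 7, against 2. The shares of all shared regions at this level were not counted with a library left out. Time of collection and read depth are not known, and the kind of control moves with the shortest listed peak.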
